A study of Homo sapiens with 6 samples.

Results

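The genes described here are 10 members of a calcium-linked group: 4 S100 proteins (S100A4, S100A6, S100A10, S100A11), the S100-binding protein S100PBP, galectin 1 (LGALS1) and 4 annexins (ANXA1, ANXA2, ANXA5, ANXA6), out of 20667 genes listed in every library. They were found by symbol, and they were selected from earlier results of the same comparison, ROCK2 KD against Scr, so the differences between these groups are given for them as a description and carry no test. The libraries are RNA-seq of U2932, a human lymphoma line of the activated B-cell-like (ABC) class of DLBCL, infected with lentivirus carrying a pLKO.1 vector with puromycin resistance and tGFP. In 3 libraries (ROCK2 KD) the vector expressed a shRNA against ROCK2, a serine/threonine kinase, and in the other 3 (Scr) a scrambled shRNA; both groups carry replicate numbers 1 to 3. All libraries come from 1 cell line with stable integration, and nothing in the labels says how far the replicates of a group were cultured apart, so the spread between them may be technical in part. The purpose of the comparison was to find genes whose expression depends on ROCK2 in this lymphoma.

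S100 proteins are small calcium sensors with paired EF-hand loops, and most act by binding other proteins as dimers. Annexins bind membranes rich in acidic phospholipids when calcium rises, and several S100 proteins dock onto the tail of an annexin: S100A10 onto ANXA2, where the pair recruits plasminogen at the cell surface, and S100A11 onto ANXA1. Galectin 1 is a lectin that binds galactose-containing glycans, and in lymphoid tissue it is known for crosslinking T-cell glycoproteins such as CD45.

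Most of the S100 genes lie together on chromosome 1, and 4 of the members are in that cluster. On GRCh37, with GENCODE 44 gene models, all 4 are on the minus strand: S100A10 at chr1:151955391-151966335, S100A11 at chr1:152004982-152020383, S100A6 at chr1:153507075-153508720 and S100A4 at chr1:153516089-153522612. Their canonical transcripts have 3 exons each and are short, 671, 563, 434 and 513 bases in that order. Between the ends of S100A10 and S100A13, a stretch of 1648 kb, the files list 36 genes; 17 of these were at 0 in all 6 libraries, and only 5 passed the filter used for testing, at least 1 FPKM (fragments scaled to transcript length and to the total of the library) in at least 3 libraries. Those 5 were the 4 members and S100A13. The 250 bases upstream of the RefSeq start are shown for the 3 members of the cluster whose window holds no annotated exon, to set S100A4, which had the largest group difference, beside S100A10 and S100A11. The windows of S100A4 and S100A11 lie within an intron of longer annotated transcripts, and that of S100A10 lies directly upstream of the gene. They are RefSeq promoter entries of GRCh38.p14, each found by an exact match at 1 place on GRCh37 (S100A4, chr1:153518283-153518532; S100A10, chr1:151966336-151966585; S100A11, chr1:152009481-152009730), written 5′ to 3′ on the minus strand, and capitals mark the motif matches described after them.
S100A4: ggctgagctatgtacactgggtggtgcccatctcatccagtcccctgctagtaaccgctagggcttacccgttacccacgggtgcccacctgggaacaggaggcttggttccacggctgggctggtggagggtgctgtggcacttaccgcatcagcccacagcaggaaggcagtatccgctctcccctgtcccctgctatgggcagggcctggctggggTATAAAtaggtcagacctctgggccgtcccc
S100A10: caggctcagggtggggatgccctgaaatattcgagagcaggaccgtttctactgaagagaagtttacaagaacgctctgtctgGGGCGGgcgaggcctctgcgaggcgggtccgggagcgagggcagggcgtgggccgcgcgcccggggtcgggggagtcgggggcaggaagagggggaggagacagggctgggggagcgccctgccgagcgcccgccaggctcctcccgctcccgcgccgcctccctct
S100A11: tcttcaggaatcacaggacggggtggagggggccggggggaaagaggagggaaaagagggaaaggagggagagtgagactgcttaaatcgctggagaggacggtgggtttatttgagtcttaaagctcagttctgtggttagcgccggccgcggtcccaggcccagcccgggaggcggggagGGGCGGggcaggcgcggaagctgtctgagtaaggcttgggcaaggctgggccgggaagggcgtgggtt

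The capitals in the S100A4 window are a TATA box (searched as TATAAA), and those in the S100A10 and S100A11 windows are GC boxes (GGGCGG). Both strands were searched, in the 12 promoter entries of the 9 members that have one, and in all 35116 promoters at the same 250 bases. LGALS1 has no entry and was not searched. A TATA match was present in 10.7% of all promoters and in entries of S100A4, ANXA1 and ANXA2, and a GC box in 42.6% of all promoters and in entries of 7 members, S100A4 and ANXA1 not among them. The GC content was 62.8% upstream of S100A4, 71.2% upstream of S100A10 and 63.6% upstream of S100A11, against a median of 58% over all promoters. The S100A6 window, not shown because it holds annotated exon bases, had a GC content of 70%, 3 GC box matches and no TATA match. Of the other motifs searched, AP-1 (TGANTCA) was found in S100PBP and ANXA2 (6.57% of all promoters), the E-box CACGTG in ANXA6 (6.34%), the NF-kB consensus in S100PBP and ANXA6 (9.96%) and the ETS-IRF composite element (GGAA and GAAA separated by any 2 bases) in ANXA1 (2.41%). The interferon-stimulated response element (GAAA repeated after any 2 bases, 3.02%) and the CArG box (1.16%) matched in no member that was searched. These motifs can share bases with one another, and a match describes the letters and not a bound site.

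The other members lie on other chromosomes or elsewhere on chromosome 1: S100PBP at chr1:33282368-33324476, LGALS1 at chr22:38071643-38075809, ANXA1 at chr9:75766781-75785309, ANXA2 at chr15:60639333-60695082, ANXA5 at chr4:122589101-122618150 and ANXA6 at chr5:150480267-150537376. Some loci overlap other annotated genes. S100A3 overlaps S100A4 on the same strand, and genes on the opposite strand overlap S100A6, S100A11, S100PBP (YARS1) and ANXA2. The library kit is not stated to keep the strand, so reads from a shared stretch cannot be assigned with certainty.

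The B-cell identity of the line was visible in its markers: MS4A1, CD79A, CD79B, CD22 and PAX5 all passed the filter, with a summed level of 567 to 1267 scaled FPKM in ROCK2 KD and 400.3 to 1291 in Scr. Scaled FPKM are the deposited FPKM after division by 1 factor per library (0.786 in both replicate 1 libraries, 1.09 to 1.16 in the others), which sets the libraries on a common scale. The 4 T-cell markers summed to 0.350 to 1.24 scaled FPKM in ROCK2 KD and 0.197 to 0.715 in Scr, the 5 myeloid markers to 0.256 to 0.825 and 0.318 to 0.720, and the 5 fibroblast markers to 0.327 to 1.99 and 0.880 to 2.29. None of these genes passed the filter, and CD3D was at 0 in all but 1 library and FCGR3A in every library. Of the epithelial markers EPCAM alone passed, at 2.23 to 4.73, with KRT8 and KRT18 near 0. The deposited FPKM summed to 208289 to 480612 per library. The files give no read number per library, and the study states its depth only as an approximate range over samples. The commonest ratio of low values put the other libraries at 70.7% to 92% of the depth of Scr replicate 3, but only 24.9% to 29.3% of these ratios lay within 5% of it, so no counting error is given per library. ROCK2 itself, the check on the labels, was at 3.50, 4.63 and 1.14 scaled FPKM in ROCK2 KD replicates 1, 2 and 3 and at 5.50, 6.21 and 5.30 in Scr. On the scaled values every ROCK2 KD library was below every Scr library, and the gap was widest in replicate 3. On the FPKM as deposited, ROCK2 KD replicate 2 (5.35) was above Scr replicate 1 (4.32). The mean log2 difference was -0.81 (SE 0.23, adjusted p = 0.801 in limma over all genes).

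The annexins ANXA5 and ANXA2 stood above all other genes of the 3 protein families, LGALS1 led the galectins, and S100A11 and S100A10 led the S100 genes. In Scr, ANXA5 was at 177 ± 32.7 scaled FPKM (SD, n = 3), ANXA2 at 95.0 ± 25.8, S100A11 at 46.2 ± 7.71, LGALS1 at 40.7 ± 12.8, S100A10 at 34.5 ± 2.63, ANXA6 at 29.4 ± 16, S100PBP at 8.76 ± 1.56, S100A6 at 3.71 ± 2.15 and S100A4 at 0.993 ± 0.528. The Scr ranges of S100A11, LGALS1, S100A10 and ANXA6 overlapped from each gene to the next, so their order is not set beyond the spread; the other neighbours in the order did not overlap in Scr. The mean level of ANXA5 in Scr was above that of 98.7% of all listed genes, and that of S100A4 above 48.4%.

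**Figure D1:**
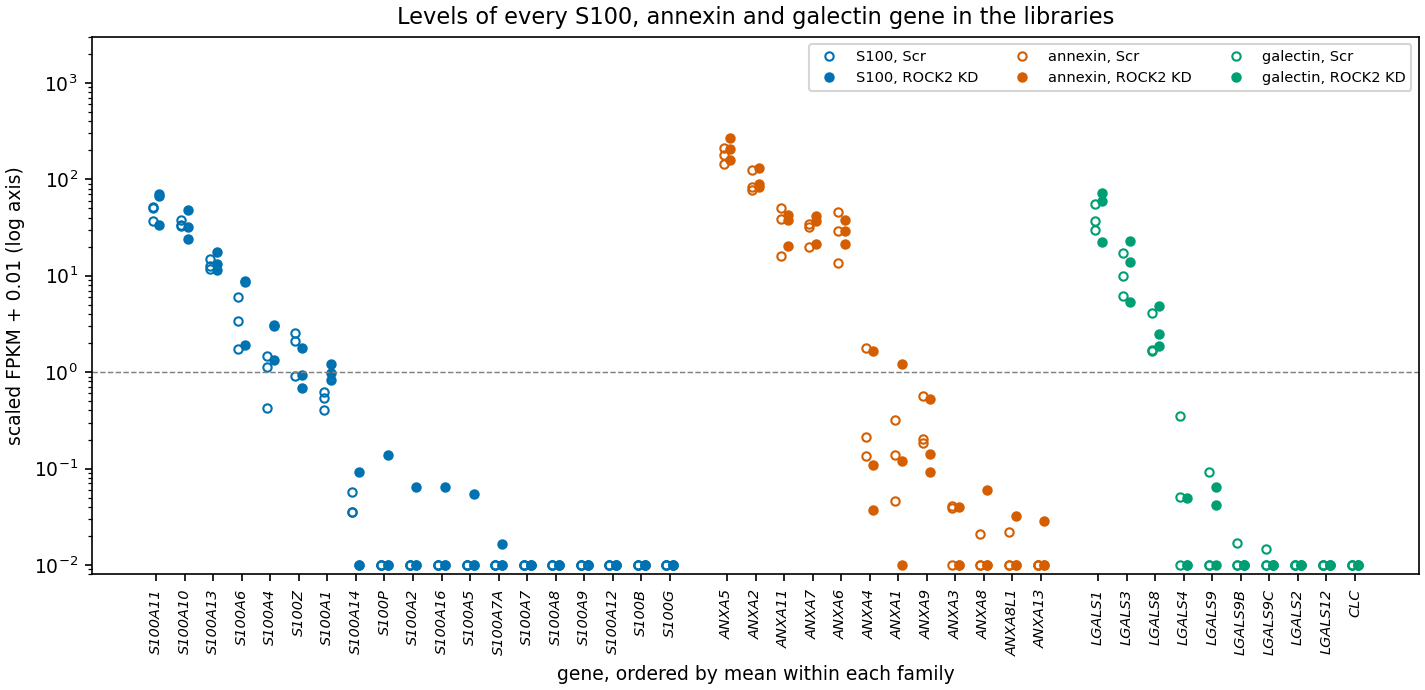
Levels of the 19 S100, 12 annexin and 10 galectin genes listed in the files (CLC is galectin 10), as scaled FPKM plus 0.01 on a log axis; open circles are the 3 Scr libraries and filled circles the 3 ROCK2 KD libraries, and the dashed line is at 1. ANXA5, ANXA2, LGALS1, S100A11 and S100A10 lie well above 1 in every library, and S100A8, S100A9, S100A12, S100B and S100G lie at 0.

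Among the S100 proteins, S100A4 and S100A6 were higher in ROCK2 KD in each pair of libraries with the same replicate number. S100A4, known for binding non-muscle myosin and for its link to cell migration and metastasis, was at 2.41, 1.54 and 3.31 FPKM as deposited in ROCK2 KD replicates 1, 2 and 3 and at 0.872, 0.484 and 1.58 in Scr. It was low in all 6 libraries, and Scr replicate 3 reached above ROCK2 KD replicate 2, so the groups overlapped. On the scaled values the ratio of ROCK2 KD to Scr was 2.77, 3.20 and 2.06 in replicates 1, 2 and 3, and on the scale used for all group differences, log2(scaled FPKM + 1), which understates the change of low genes, the difference was 0.79 (SE 0.12). S100A4 met the filter through its 3 ROCK2 KD libraries and Scr replicate 3 only, and a short transcript yields fewer fragments for the same FPKM. In bulk RNA, fewer cells that express a gene and less RNA per cell cannot be told apart, here and for every other member.

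S100A6 (calcyclin), which binds the ubiquitin ligase adaptor CACYBP, was at 6.87, 2.20 and 9.42 FPKM in ROCK2 KD and at 4.71, 2.0 and 3.72 in Scr. Its pair ratios on the scaled values were 1.46, 1.11 and 2.50, so the replicate 2 pair was nearly level and replicate 3 stood apart. The mean difference was 0.56 (SE 0.19), with overlapping groups. Scr replicate 1, at 5.99 scaled FPKM, was above ROCK2 KD replicate 2, at 1.90.

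S100A10 and S100A11, both well expressed, did not move one way. S100A10, the partner of ANXA2 that lacks a working calcium loop, was at 37.4, 36.8 and 26.6 FPKM in ROCK2 KD and at 25.8, 38.5 and 40.9 in Scr. The replicate 1 pair differed by 0.52 (log2) and the replicate 3 pair by -0.62, which left a mean of -0.05 (SE 0.20). S100A11 (calgizzarin) was at 52.1, 39.0 and 78.0 FPKM in ROCK2 KD and at 40.3, 43.3 and 54.5 in Scr. The pair difference was 0.37 in replicate 1 and 0.49 in replicate 3 but -0.14 in replicate 2, with a mean of 0.24 (SE 0.14), and the groups overlapped.

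S100PBP, a nuclear protein that binds S100P, was the steadiest member between groups, at 8.18, 9.78 and 7.59 FPKM in ROCK2 KD and 8.20, 9.92 and 7.98 in Scr. All 3 pairs had slightly lower values in ROCK2 KD, with differences of -0.00, -0.01 and -0.08, and the mean of -0.03 was smaller in size than its SE of 0.10. S100P itself was at 0 in 5 libraries and at 0.129 scaled FPKM in ROCK2 KD replicate 1.

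LGALS1 was at 56.5, 25.9 and 65.0 FPKM in ROCK2 KD and at 43.1, 34.8 and 40.6 in Scr. Replicates 1 and 3 were higher in ROCK2 KD, with scaled ratios of 1.31 and 1.57, and replicate 2 was lower, at 0.747. The mean difference of 0.21 (SE 0.19) was close to its error, and ROCK2 KD held both the lowest and the highest LGALS1 levels of the series.

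**Figure D2:**
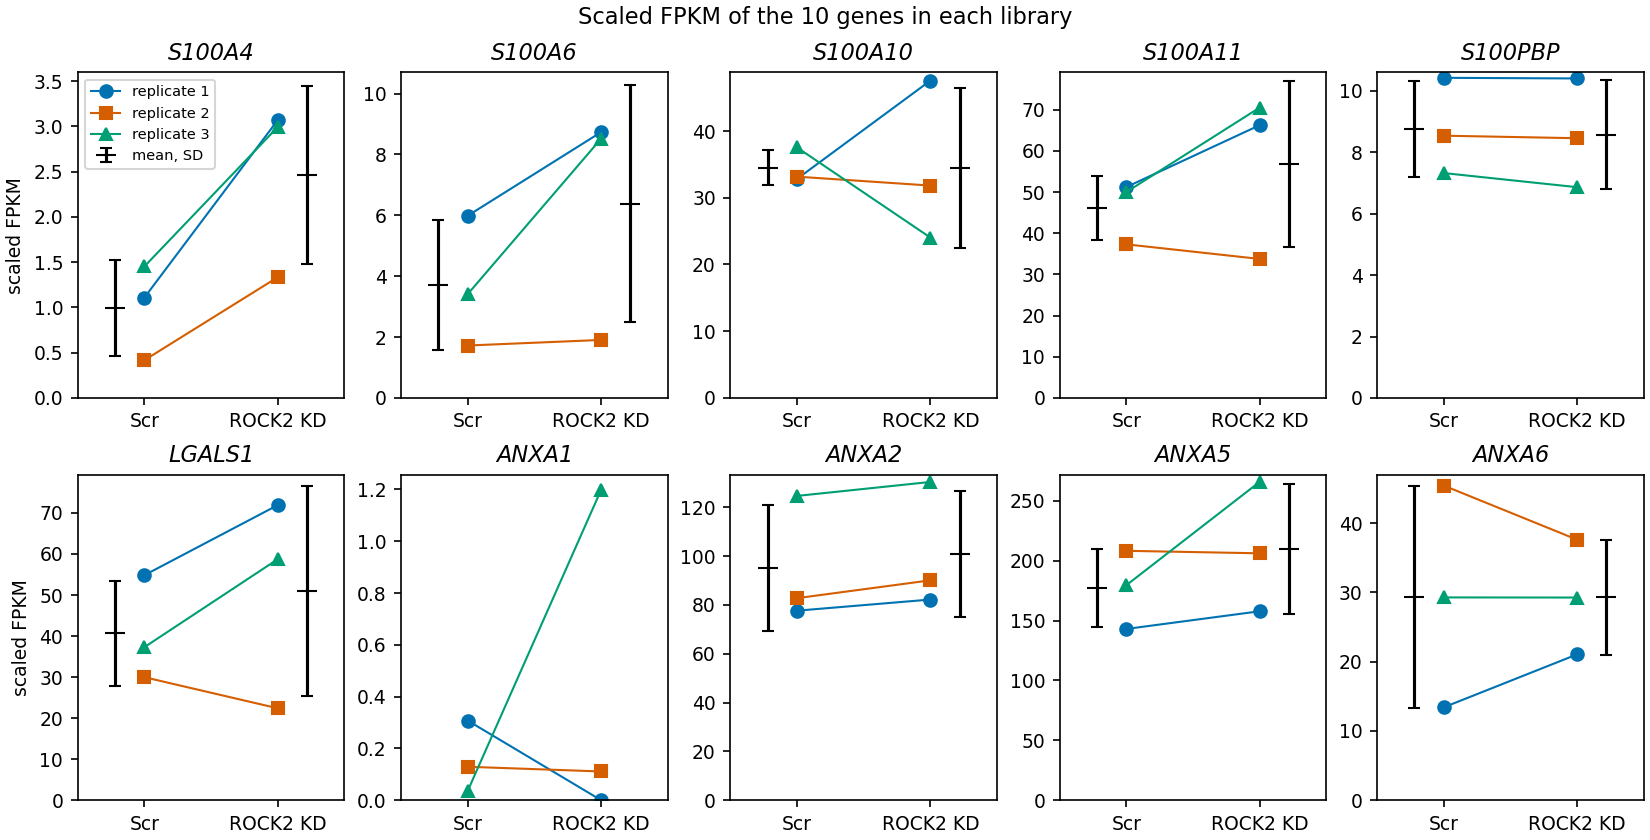
Scaled FPKM of the 10 members in each library, with a line joining the Scr and ROCK2 KD libraries of the same replicate number; black bars are the group mean and SD of 3 libraries, left out for ANXA1, which has a library at 0, and each panel has its own axis from 0. The lines of S100A4 and S100A6 slope upward to ROCK2 KD in all 3 replicates, those of S100A11 and LGALS1 slope upward in replicates 1 and 3 and downward in replicate 2, and those of S100A10 point in different directions.

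The annexins differed in size and in evenness. ANXA1 (lipocortin), known as an anti-inflammatory ligand of formyl peptide receptors, was near the floor: it was listed at 0, 0.128 and 1.32 FPKM in ROCK2 KD and at 0.242, 0.150 and 0.0395 in Scr. Only ROCK2 KD replicate 3 exceeded 1 FPKM, and ANXA1 did not meet the filter. The receptors FPR1 and FPR2 were at 0 in every library.

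ANXA2, the membrane anchor of S100A10, was at 64.6, 104 and 144 FPKM in ROCK2 KD and at 61.0, 96.1 and 136 in Scr. The pair differences of 0.08, 0.12 and 0.06 were all upward and alike in size, with a mean of 0.09 (SE 0.09), while the replicate numbers differed far more. There are 3 pseudogene copies of ANXA2 in the files too, and reads from near-identical copies can be split among them. ANXA2P2 was at 15.9% and 17.8% of the ANXA2 level in ROCK2 KD replicates 1 and 3 and at 17.4% and 17.5% in Scr replicates 1 and 3, but at 104% and 102% in the replicate 2 libraries of ROCK2 KD and Scr. The level of ANXA2 is therefore uncertain, above all in replicate 2. With the 3 copies ANXA2P1, ANXA2P2 and ANXA2P3 added to ANXA2, the pair differences were 0.06, 0.13 and 0.07.

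The amount of ANXA2 message per S100A10 message varied between libraries. The ratio of FPKM was 1.73, 2.83 and 5.42 in ROCK2 KD and 2.37, 2.50 and 3.32 in Scr, so ROCK2 KD held both extremes and the groups overlapped. AHNAK, a large scaffold bound by the ANXA2 and S100A10 pair, was between 0.0683 and 0.388 scaled FPKM, and the plasminogen activator PLAT did not exceed 0.0469.

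ANXA5, the phosphatidylserine-binding annexin used to stain apoptotic cells, was the most abundant member, at 124, 238 and 294 FPKM in ROCK2 KD and at 112, 242 and 196 in Scr. Its pair differences were 0.14, -0.01 and 0.56, so most of the mean of 0.23 (SE 0.13) came from replicate 3. ANXA6, the annexin with a duplicated core, was at 16.5, 43.5 and 32.4 FPKM in ROCK2 KD and at 10.5, 52.8 and 31.9 in Scr. The pair difference was 0.61 in replicate 1 and -0.27 in replicate 2, and the replicate 3 libraries were level (-0.00), with a mean of 0.12 (SE 0.17).

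**Figure D3:**
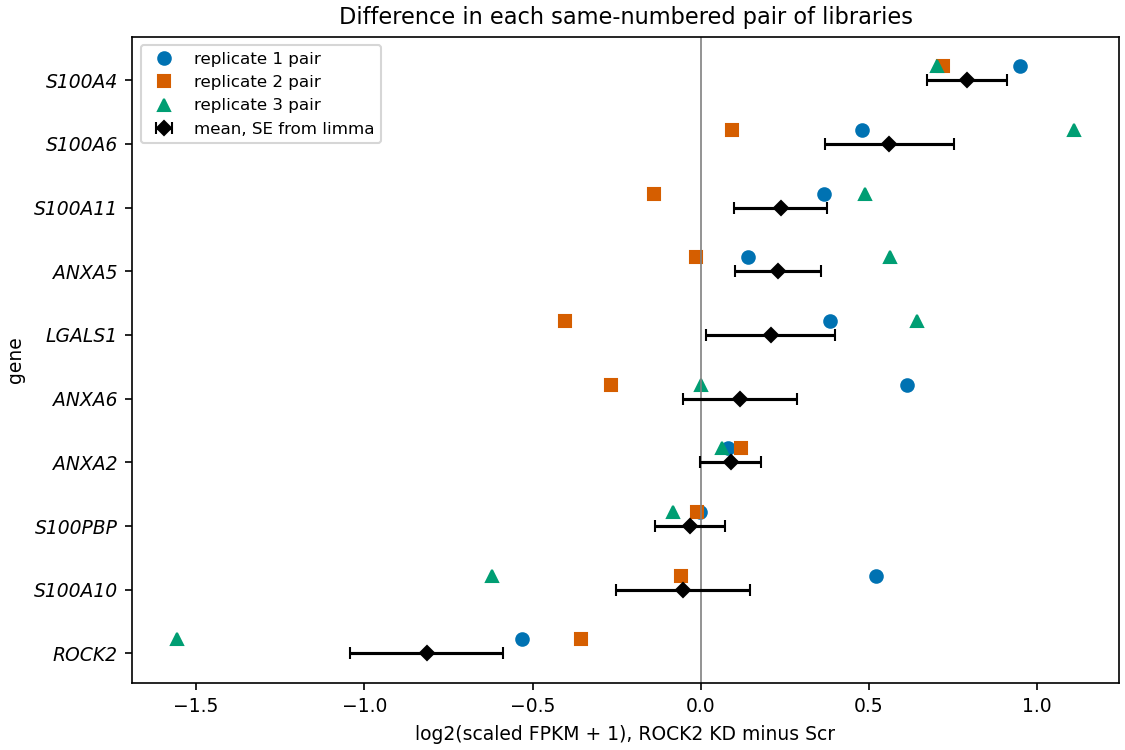
Difference in log2(scaled FPKM + 1), ROCK2 KD minus Scr, for ROCK2 and the 9 tested members; coloured points are the 3 same-numbered pairs and black diamonds the mean with its SE from limma. All 3 points lie above 0 for S100A4, S100A6 and ANXA2 and below 0 for ROCK2 and S100PBP; for S100A6, S100A11, LGALS1 and ANXA5 the replicate 3 point is the highest and the replicate 2 point the lowest.

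Counted over the group, 9 of the 10 members passed the filter, as did 10526 genes in all. In limma with the replicate number as a block, no gene had a Benjamini-Hochberg adjusted p under 0.05 (0% of genes), and so none of the 9 members did. Before adjustment 573 genes (5.44%) had a p under 0.05, among them the members S100A4 and S100A6. Higher in ROCK2 KD in all 3 pairs were 3 members, S100A4, S100A6 and ANXA2, where 13.1% of all genes were; lower in all 3 pairs was 1 member, S100PBP, where 12% were. No member had groups that did not overlap, against 0.922% of genes with every ROCK2 KD library above and 0.76% with every one below. After ComBat, an empirical Bayes correction of the replicate number that stands closer to the processing of the study, followed by limma without a block, 296 genes passed an adjusted p under 0.05 (2.81%), among them S100A4. That fit does not count the degrees of freedom used by the correction, so its p-values are likely too small. The median difference of the tested members was 0.21 against -0.00 for all genes tested, and the median absolute difference 0.21 against 0.09. The members' median was 0.13 without replicate 1, 0.35 without replicate 2 and 0.12 without replicate 3. Because the members were chosen on this same contrast, nothing is read from these counts and medians.

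What the choice of members did not use is how they vary with the replicate number. In all 3 pairs the libraries of 1 number resembled each other across genes (r of their deviations from the group means 0.74 to 0.85), and a limma F test of the replicate number called 57.5% of all genes at an adjusted p under 0.05. Of the 9 tested members 8 were called, S100A10 alone missing the threshold (adjusted p = 0.382, limma). The smallest adjusted p in this limma test were those of S100A6 (0.00338), ANXA2 (0.00438) and ANXA6 (0.00578). Since most genes were called, a call sets no member apart from the rest of the genes. The direction was not common to the members. On the scaled values S100A4, S100A6, S100A11 and LGALS1 were lowest in replicate 2 in both groups, ANXA6 was highest in replicate 2 and lowest in replicate 1 in both, S100PBP was highest in replicate 1 and lowest in replicate 3 in both, and ANXA2 was highest in replicate 3 in both. On the FPKM as deposited, S100A11 was lowest in replicate 1 in Scr and S100PBP highest in replicate 2 in both groups, so these orders depend on the scaling. The order of ANXA2 depends on its copies: with them added, replicate 2 was the highest, at 186 in ROCK2 KD and 170 in Scr against 154 and 147 in replicate 3.

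The spread over replicate numbers exceeded the group difference for all tested members but S100A4, as it did for all but 414 of the 10526 genes tested. This spread is the widest gap among 3 means, each of fewer libraries than a group mean, so it tends to be larger from noise alone. The comparison of both sizes is a description. The range of the 3 replicate means was 1.55 (log2) for S100A6, larger than in 94.6% of all genes, 1.25 for both ANXA6 and LGALS1, 0.78 for S100A4, 0.73 for S100A11, 0.67 for ANXA2, 0.54 for ANXA5, 0.50 for S100PBP and 0.38 for S100A10. The median was 0.73 for the tested members and 0.59 for all genes. In S100A4 the group difference and this range were nearly equal, at 0.79 and 0.78.

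**Figure D4:**
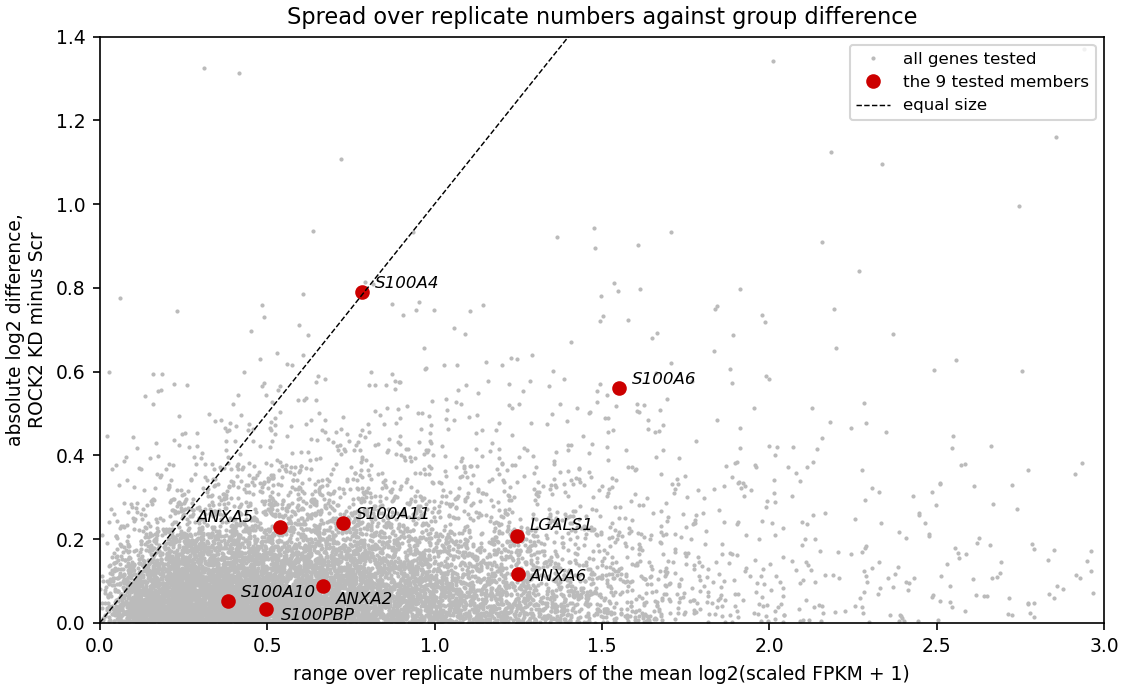
Absolute group difference (vertical axis, log2) against the range of the mean log2(scaled FPKM + 1) over the 3 replicate numbers (horizontal axis) for all genes tested in grey and the 9 tested members in red, with a dashed line where both are equal; 49 genes lie beyond the axes. S100A4 sits on the line at 0.79 and 0.78, and the other members lie below it, as do all but 414 of the 10526 genes, S100A6 with the widest range at 1.55. The range tends to be larger than the group difference from noise alone.

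Over the 6 libraries S100A6, S100A11 and LGALS1 followed each other. Pearson's r on the log2 scale was 0.96 between S100A6 and S100A11, 0.96 between S100A6 and LGALS1 and 0.94 between S100A11 and LGALS1, and S100A4 followed S100A6 at 0.82. The libraries share replicate numbers and these genes share short transcripts, so the values are a description. S100A10 did not follow S100A4, S100A6 or S100A11, with r of 0.02 to 0.06. The genes most like S100A6 were PNRC1, FOXC1, GGACT, ERN1 and RNASET2 (r of 0.98 to 0.99), and those most like LGALS1 were RRAS, TRIM13, LINC00662, AASS and PNRC1 (0.99 each for all 5). Of the 10526 genes, 197 had an r above 0.9 with S100A6 and 239 with LGALS1.

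In the remaining S100 genes little was expressed. Of 16 on the list 15 were in the files, and 12 of them stayed below 1 FPKM in all libraries. Of these 6 were at 0 throughout, among them the myeloid calprotectin genes S100A8 and S100A9. The tested ones were S100A13, a gene linked to export of FGF1, at 11.5 to 17.4 scaled FPKM, and S100Z, at 0.668 to 2.56; each changed direction between pairs (mean difference 0.09, SE 0.11, and -0.41, SE 0.18). S100A1, below the filter, was at 0.823, 1.20 and 0.975 scaled FPKM in ROCK2 KD and at 0.397, 0.609 and 0.531 in Scr. Its groups did not overlap on these values, and it was not tested. On the FPKM as deposited they did overlap, with 0.647 in ROCK2 KD replicate 1 and 0.707 in Scr replicate 2. Of the genes tested, 0.922% had every ROCK2 KD library above every Scr library.

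Of 10 further annexins 8 were in the files and 2 were tested, ANXA7 and ANXA11, at 28.6 ± 7.73 and 35.0 ± 17.5 scaled FPKM in Scr (SD, n = 3), close to ANXA6 and S100A10. ANXA7 was higher in ROCK2 KD in all 3 pairs, by 0.11, 0.29 and 0.21, and ANXA11 was level on average (0.01, SE 0.13). ANXA4 was at 1.66 and 1.79 scaled FPKM in the replicate 1 libraries and at 0.203 or less elsewhere. Of 14 further galectins 9 were in the files and again 2 were tested. LGALS8 was higher in all 3 pairs, by 0.19, 0.39 and 0.09, and LGALS3, the chimera-type galectin, was higher in replicates 1 and 3 (0.40 and 1.06) and lower in replicate 2 (-0.78). LGALS4, the next in level, was at 0.340 scaled FPKM or less. None of the 6 tested genes outside the members, S100A13, S100Z, ANXA7, ANXA11, LGALS3 and LGALS8, had an unadjusted p under 0.05 in limma, where 5.44% of all genes had one.

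Known partners of the members were listed as a group of 22 genes, 11 of which were tested. Of these 3 were higher and 1 lower in all 3 pairs, where 13.1% and 12% of all genes were. None had an unadjusted p under 0.05 in limma, where 5.44% of all genes had one. CACYBP, the calcyclin-binding protein, was lower in ROCK2 KD in all pairs (-0.05, -0.22 and -0.87), with a mean of -0.38 (SE 0.16). PTPRC, which encodes CD45, a glycoprotein ligand of galectin 1, was higher by 0.49, 0.15 and 0.13, and RASA1, a Ras regulator bound by ANXA6, by 0.16, 0.18 and 0.35. CD44, a glycoprotein that binds galectins, was at 2.34, 4.18 and 17.7 scaled FPKM in ROCK2 KD and 1.58, 4.94 and 2.90 in Scr, so a single library, ROCK2 KD replicate 3, stood apart. MYH9, the non-muscle myosin bound by S100A4, was at 35.8, 45.5 and 51.6 in ROCK2 KD and 31.5, 47.0 and 53.8 in Scr. VIM, common in mesenchymal cells, was at 1.30 or less in every library.

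ROCK2 KD replicate 3 was the library lowest in ROCK2 and, on the scaled values, highest in S100A11, ANXA1, ANXA2, ANXA5 and CD44. It was also the lowest of the 6 libraries in the members S100A10 (24.0 scaled FPKM) and S100PBP (6.86), and with the pseudogene copies added ANXA2 was higher in ROCK2 KD replicate 2. Several differences rested on the replicate 3 pair, which holds Scr replicate 3 as well. S100A6 and LGALS1 were higher in ROCK2 KD replicate 1 than in ROCK2 KD replicate 3 on the scaled values. Without the replicate 3 pair the mean difference of S100A6 was 0.29 in place of 0.56, that of S100A11 0.12 in place of 0.24, that of ANXA5 0.07 in place of 0.23 and that of LGALS1 -0.00 in place of 0.21, whereas S100A4 stood at 0.82. Without the replicate 2 pair the values were 0.78 for S100A6, 0.43 for S100A11, 0.35 for ANXA5 and 0.51 for LGALS1. S100A10 was at -0.33 without replicate 1 and 0.24 without replicate 3, and ANXA6 at -0.13 without replicate 1 and 0.31 without replicate 2. The part of the ROCK2 level in these differences between pairs was not tested.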

How the data were processed

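RNA-seq of 6 libraries was used, 3 of ROCK2 KD and 3 of Scr, grouped by their titles. The deposited values are FPKM per gene, 1 table per library with no counts; the authors made them with Cufflinks after alignment by STAR to the hg19 build. The members and the other gene lists were chosen with earlier results of these data known. Every member is named; from the other lists, up to 3 genes with the largest difference in the same direction in all pairs and, of the 3 families, up to 3 genes of the highest mean level are named, besides the 5 genes closest to S100A6 and LGALS1 by Pearson's r. CD44, MYH9, VIM, AHNAK, PLAT, S100P and the receptors were added after their values were seen.

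FPKM were divided by trimmed-mean scaling factors (30% of the ratios and 5% of the levels trimmed at each end), put on the scale log2(scaled FPKM + 1), and filtered at 1 FPKM or more in at least 3 libraries. limma 3.58.1 in R 4.3.3 was run on all 10526 genes with the replicate number as a block, because same-numbered libraries deviated together in all 3 pairs (r of 0.855, 0.785 and 0.742 across genes), and p-values were adjusted by Benjamini-Hochberg. The replicate number was tested by an F test in the same model. Both were tested on simulated data with known changes. With 3 against 3 libraries, values have 2 residual degrees of freedom. Alternatives were no block, ComBat, a pseudocount of 0.1, other filters and scalings, and leaving out each replicate. Annotation came from GENCODE 44 on GRCh37, which matches hg19 in coordinates, and promoters from RefSeq GRCh38.p14. 1 item of a marker list is not reported here.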

Additional observations from a re-analysis of the deposited data

How the results depend on the processing

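In the 10526 genes tested, 573 had an unadjusted p under 0.05 with the replicate block, 26 with no replicate block and 2126 after ComBat; without 1 replicate the number was 410 to 1008, the highest without replicate 1. None passed an adjusted p under 0.05 with the block, against 296 after ComBat and 0 to 52 without 1 replicate, the highest again without replicate 1. The fit after ComBat takes no account of the replicate terms already removed, so its numbers are likely too high. The members with 1 direction in all pairs numbered 4, and 4 to 7 without 1 replicate, where fewer pairs have to agree, the 7 being without replicate 2. Over all settings the difference ran from 0.61 to 1.29 for S100A4 (1.29 with a pseudocount of 0.1), from 0.29 to 0.78 for S100A6, and from 0.07 to 0.11 for ANXA2. LGALS1, ANXA6 and S100A10 changed sign in 1 setting each, all of them with a replicate left out. S100A4 has no value where at least 1 FPKM was required in every library. A mean of at least 1 FPKM was added as a filter after the data were seen. FPKM without counts limit how far the low values of S100A4, S100A6 and ANXA1 can be trusted.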
